A study of Mus musculus with 2 samples.

Results

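The genes of the colony-stimulating factor receptors and *Flt3* were followed in single adipose tissue macrophages (ATMs). They were taken by their symbols, and the 6 members, *Csf1r*, *Csf2ra*, *Csf2rb*, *Csf2rb2*, *Csf3r* and *Flt3*, were all found once among the 31053 genes of the count tables. Each had UMIs (unique molecular identifiers, 1 for each captured RNA molecule) in both libraries.

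Colony-stimulating factors are secreted proteins that keep myeloid cells alive and direct their growth and maturation. *Csf1r* encodes the receptor tyrosine kinase for CSF1 and IL-34, on which most tissue macrophages depend, and *Flt3* encodes a kinase of the same family that binds FLT3 ligand and is a feature of progenitors and conventional dendritic cells. The CSF2 (GM-CSF) receptor has no kinase of its own: *Csf2ra* encodes the chain that binds CSF2, and *Csf2rb* the common beta chain, shared with the IL-3 and IL-5 receptors, which carries the JAK2 kinase. *Csf2rb2* encodes a second mouse beta chain that serves IL-3 alone, and *Csf3r* the G-CSF receptor of the neutrophil lineage.

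The study asked how a single night of high fat feeding changed ATMs. Male mice of the C57/BL6 strain, with no transgene or other treatment in the labels, stayed on control diet (CD) or received high fat diet (HFD) overnight. The study's methods give its mice as C57BL/6JOlaHsd aged 8 to 12 weeks. CD45+Lin-Ly6Clow/-F4/80+ macrophages were sorted from the epididymal fat of 3 mice per diet, pooled, and made into 1 droplet library of RNA 3' ends per diet. The mouse a cell came from can therefore not be told, and diet cannot be told apart from library. The gate required F4/80 and removed T cells, B cells, eosinophils and neutrophils, and Ly6C-high monocytes, and the methods add CD11b to it, so cells with little F4/80 or CD11b, such as many dendritic cells, may be missing.

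Cells with 200 to 3500 genes and at most 10% mt- (mitochondrial) UMIs were kept, which left 2364 of 4459 barcodes in CD and 2021 of 3163 in HFD. The kept cells held 12284010 UMIs in CD and 8086475 in HFD, with medians of 4490.5 and 2792 UMIs per cell, and cells with fewer than 1000 genes made up 14.4% of CD and 40.8% of HFD cells. The libraries shared 14 barcodes, 10 of them kept in each. The 6 macrophage markers were all found, at 4785 CPM (UMIs divided by all UMIs of the same cells and multiplied by 1000000) in CD and 2941 CPM in HFD, and at least 2 of them in 2164 CD and 1543 HFD cells. Of the 6 neutrophil markers, *Ly6g* had no UMI in either library and the sum was 7.73 CPM in CD and 1.73 CPM in HFD, and the 6 mast cell or basophil markers were at 0 in both.

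Cells were compared in 7 sets named by the genes that define them: Timd4+ (368 CD and 72 HFD cells), Lyve1+ (1172 and 415), Folr2+Lyve1- (872 and 581), Ccr2+ (1326 and 1131), cells with at least 10 *Lyz1* UMIs, called Lyz1-high here (555 and 672), Plac8+ (42 and 73) and Ccl17+ (31 and 27). The sets shared cells, and 123 CD and 54 HFD cells were both Lyve1+ and Lyz1-high. Of the Lyz1-high cells, 95.7% in CD and 89.7% in HFD were also Ccr2+. Of the Timd4+ cells, 286 of 368 in CD but 28 of 72 in HFD were also Lyve1+. Folr2+Lyve1- cells made up 19.3% of the Timd4+ set in CD and 37.5% in HFD, and Lyz1-high cells 8.70% and 16.7%. Ratios between the diets in Timd4+ cells thus compare sets of different make-up. With 1 library per diet there was no replicate and no test between diets or sets. All 95% intervals cover counting error only, and a difference is called beyond counting error where its interval excludes 0. Between sets that share cells the intervals are not exact, and the shared cells draw the ratio toward 0. Where such sets did not differ beyond counting error, their levels were not shown to be equal. Over all kept cells, fewer cells that use a gene and less RNA of it per cell cannot be told apart.

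The promoters of 4 members were at hand from RefSeq (GRCm38.p6) and are shown because several of these receptors are known targets of PU.1, the myeloid factor encoded by *Spi1*. Each sequence runs 5' to 3' on the strand of the gene, from 250 bases before to 50 bases after the start site, with the PU.1 core letters GAGGAA on either strand in capitals. GAGGAA was found in 28.3% of all 32851 promoters of this length. The letters TTGCNNAA of C/EBP factors, found in 10.8% of all promoters, and TGTGGT of RUNX factors, found in 16.8%, were searched on both strands and had no match in these 4.
Csf2ra, chr19:61228369-61228668, minus strand, 2 matches: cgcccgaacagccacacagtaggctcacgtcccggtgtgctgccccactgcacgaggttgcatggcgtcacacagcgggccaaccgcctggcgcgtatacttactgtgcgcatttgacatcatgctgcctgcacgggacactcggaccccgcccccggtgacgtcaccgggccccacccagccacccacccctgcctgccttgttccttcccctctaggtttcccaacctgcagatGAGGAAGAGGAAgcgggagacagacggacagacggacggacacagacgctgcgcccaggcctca
Csf2rb2, chr15:78305672-78305971, minus strand, 2 matches: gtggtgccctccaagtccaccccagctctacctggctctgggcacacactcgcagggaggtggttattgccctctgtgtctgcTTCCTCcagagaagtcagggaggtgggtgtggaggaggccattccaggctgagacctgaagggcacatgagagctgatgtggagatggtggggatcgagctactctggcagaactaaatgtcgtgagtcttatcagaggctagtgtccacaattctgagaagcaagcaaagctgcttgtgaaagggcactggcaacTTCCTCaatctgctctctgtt
Csf3r, chr4:126024409-126024708, plus strand, 1 match: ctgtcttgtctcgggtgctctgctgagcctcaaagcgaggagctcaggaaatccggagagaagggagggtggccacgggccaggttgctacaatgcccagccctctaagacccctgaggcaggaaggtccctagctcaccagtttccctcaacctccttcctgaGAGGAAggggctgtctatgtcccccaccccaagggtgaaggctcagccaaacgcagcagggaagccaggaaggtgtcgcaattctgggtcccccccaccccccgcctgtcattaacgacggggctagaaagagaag
Flt3, chr5:147400440-147400739, minus strand, no match: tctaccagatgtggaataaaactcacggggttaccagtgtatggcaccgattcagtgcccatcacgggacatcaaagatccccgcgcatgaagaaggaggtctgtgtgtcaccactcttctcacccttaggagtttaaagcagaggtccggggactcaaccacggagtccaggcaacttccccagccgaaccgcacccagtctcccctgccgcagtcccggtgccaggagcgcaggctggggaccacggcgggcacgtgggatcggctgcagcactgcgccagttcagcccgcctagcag
The 2 matches of *Csf2ra* adjoined each other 14 and 8 bases before the start site. *Spi1* itself was at 325 CPM in HFD and 330 CPM in CD (log2 ratio of HFD over CD -0.02, 95% interval -0.09 to 0.05).

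*Csf1r* (ENSMUSG00000024621, chromosome 18, 61100598 to 61132149, plus strand, GRCm38) was the member with the most UMIs, 10015 in CD and 3804 in HFD. Its level was 815 CPM (799 to 831) in CD and 470.4 CPM (456 to 486) in HFD. In CD it was highest in the resident-like sets, with 1142 CPM in Timd4+ and 1115 CPM in Lyve1+ cells. It then stood at 671 CPM in Folr2+Lyve1-, 651 CPM in Ccr2+, 597 CPM in Plac8+, 445 CPM in Lyz1-high and 365 CPM in Ccl17+ cells. In this order the neighbours Timd4+ and Lyve1+, Folr2+Lyve1- and Ccr2+, Ccr2+ and Plac8+, and Lyz1-high and Ccl17+ did not differ beyond counting error. Many of these cells were shared: 77.7% of Timd4+ cells were also Lyve1+, and 65.1% of Folr2+Lyve1- and 71.4% of Plac8+ cells also Ccr2+.

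The HFD library had nearly the same order, from 799 CPM in Lyve1+ and 706 CPM in Timd4+ cells down through 569.7 CPM in Folr2+Lyve1-, 395 CPM in Plac8+, 377 CPM in Ccr2+ and 271 CPM in Lyz1-high to 249 CPM in Ccl17+ cells. Here Lyve1+ and Timd4+, Plac8+ and Ccr2+, and Lyz1-high and Ccl17+ cells did not differ beyond counting error. Lyve1+ cells held 2.50 times the *Csf1r* of Lyz1-high cells in CD (log2 1.32, 1.25 to 1.40) and 2.95 times in HFD (log2 1.56, 1.44 to 1.68).

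*Csf2ra* (ENSMUSG00000059326, chromosome 19, 61223957 to 61228429, minus strand), the chain that binds CSF2, ran the other way across the same cells. In CD it was at 403 CPM in Lyz1-high, 377 CPM in Ccl17+, 324 CPM in Ccr2+ and 316 CPM in Folr2+Lyve1- cells. It was lower in Plac8+ (249 CPM), Lyve1+ (193 CPM) and Timd4+ cells (181 CPM). No 2 neighbours in this order differed beyond counting error, while its ends did, Timd4+ over Lyz1-high cells having a log2 ratio of -1.16 (-1.34 to -0.98). That of Lyve1+ over Lyz1-high cells was -1.07 (-1.18 to -0.96). In HFD the span was narrower, from 349 CPM in Lyz1-high and 323 CPM in Ccr2+ cells, through 281 CPM in Plac8+, 273 CPM in Ccl17+, 257 CPM in Folr2+Lyve1- and 246 CPM in Timd4+, to 229 CPM in Lyve1+ cells. The log2 ratio of Lyve1+ over Lyz1-high cells was -0.61 (-0.79 to -0.43) there. Of the neighbours in the order only Lyz1-high and Ccr2+ cells had an interval that excluded 0 (log2 0.11, 0.01 to 0.20). Most Lyz1-high cells were also Ccr2+, so that interval is not exact and the difference is not secure.

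**Figure D1:**
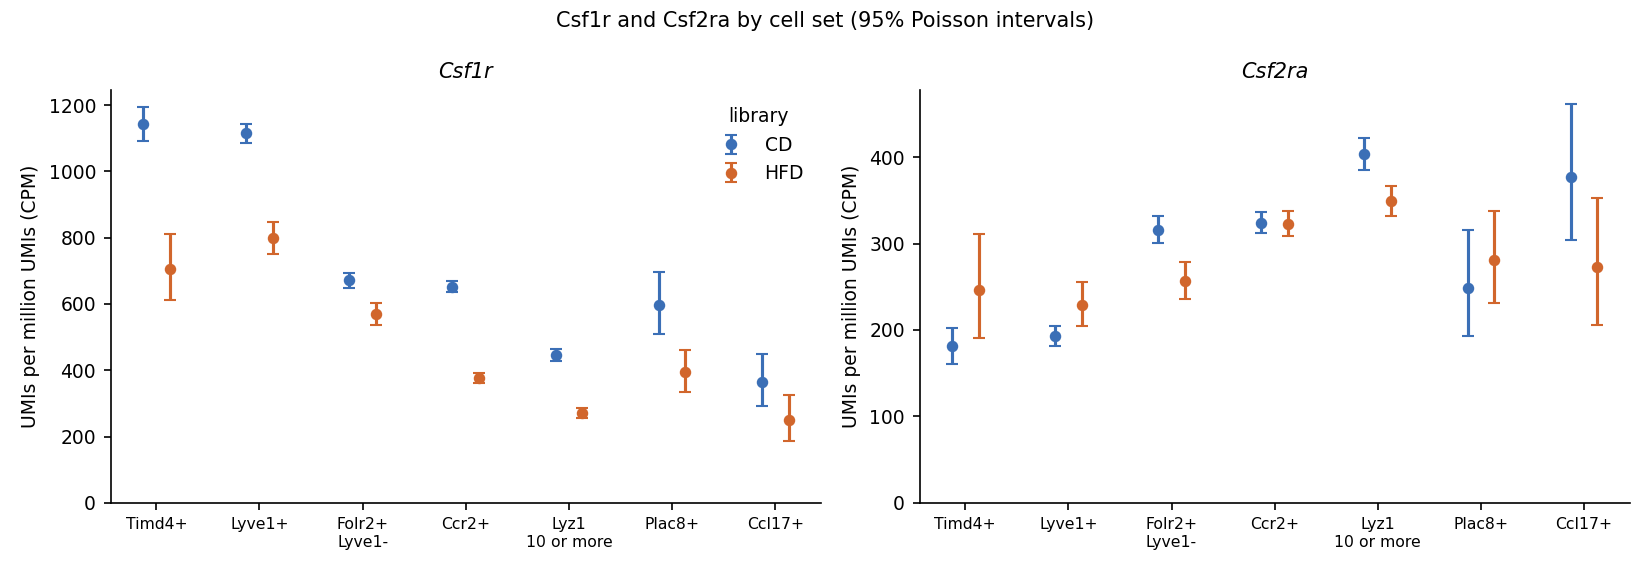
Levels of *Csf1r* and *Csf2ra* (vertical axes, CPM) in the 7 cell sets, with points for the CD and HFD libraries and bars for 95% Poisson intervals. *Csf1r* falls from 1142 CPM in Timd4+ to 365 CPM in Ccl17+ cells of the CD library, and *Csf2ra* is highest in Lyz1-high cells in both libraries.

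The balance of the receptors does not depend on scaling, since both counts come from the same cells. In CD, 6.32 *Csf1r* UMIs (5.59 to 7.15) were counted for each *Csf2ra* UMI in Timd4+ cells and 5.79 in Lyve1+ cells, against 1.10 (1.04 to 1.18) in Lyz1-high and 0.967 (0.715 to 1.31) in Ccl17+ cells. In HFD the ratio was 3.49 (3.08 to 3.97) in Lyve1+, 2.87 in Timd4+, 0.912 in Ccl17+ and 0.777 (0.721 to 0.837) in Lyz1-high cells. *Csf2ra* outnumbered *Csf1r* beyond counting error in Lyz1-high cells of the HFD library.

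Graded by *Lyz1*, a lysozyme abundant in monocyte-derived cells, both genes moved in steps. Bins set on each cell's own *Lyz1* level were chosen after the set values were known. In CD, *Csf1r* was at 1159.9 CPM in cells with no *Lyz1* UMI, 993 CPM in cells under 1000 CPM of *Lyz1*, 637 CPM between 1000 and 3000, 467 CPM between 3000 and 10000, and 282 CPM above. *Csf2ra* was at 170.4, 209.8, 325, 391 and 489.7 CPM in the same bins. Neighbouring intervals did not overlap for *Csf1r* in CD. In HFD *Csf1r* was at 822, 673, 566, 310.1 and 224 CPM, and *Csf2ra* at 194, 236, 287, 321 and 396 CPM. The median depth of the CD bins went from 3213 to 8848 UMIs per cell along with *Lyz1*. With each cell thinned to 1000 UMIs the CD gradients were about as large: *Csf1r* went from 1229 CPM in cells with no *Lyz1* UMI to 255 CPM in the highest bin, and *Csf2ra* from 149 to 533 CPM. The HFD bins had median depths of 1572, 2798, 1475, 5346 and 6650 UMIs. Thinned, HFD *Csf1r* was at 1014, 855, 798, 343 and 267 CPM. Thinned HFD *Csf2ra*, at 165, 205, 353, 321 and 376 CPM, did not rise at every step.

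**Figure D2:**
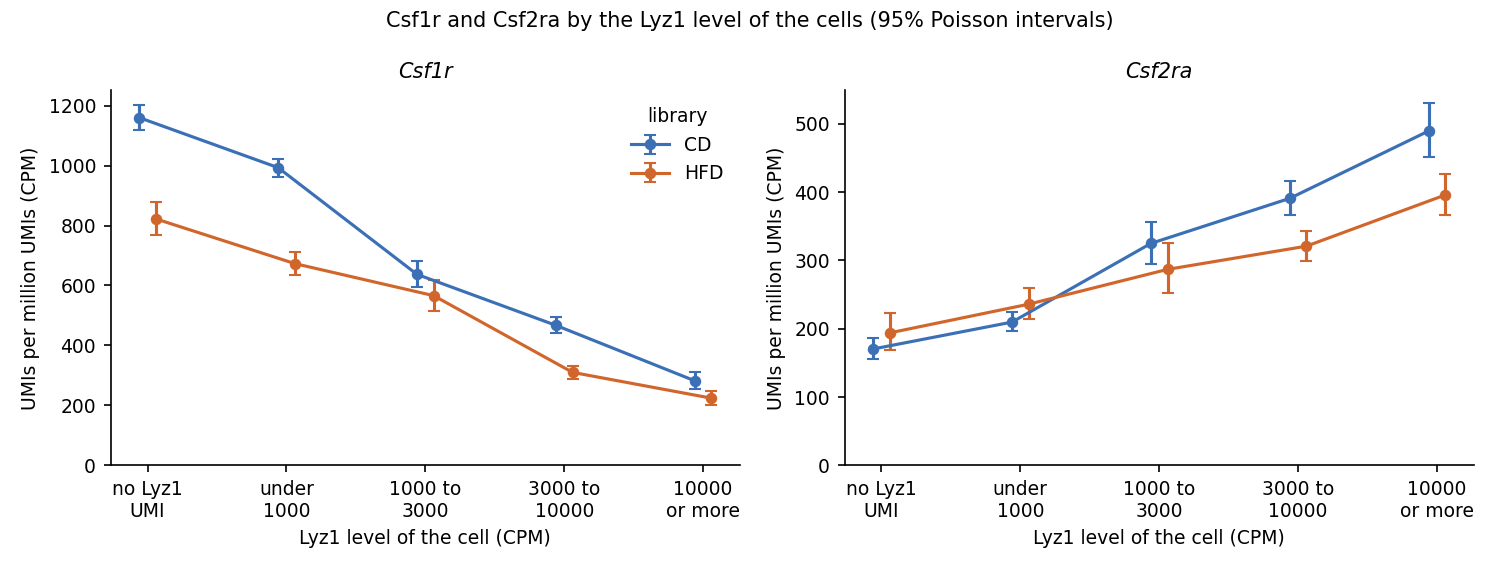
Levels of *Csf1r* and *Csf2ra* (vertical axes, CPM) in cells binned by their own *Lyz1* level (horizontal axes, CPM), with 95% Poisson intervals and a line for each library. *Csf1r* steps down from 1159.9 to 282 CPM in CD while *Csf2ra* steps up from 170.4 to 489.7 CPM.

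Thinned to 1000 UMIs per cell, *Csf1r* was found in 68.2% (65.4 to 70.8) of 1162 Lyve1+ and 35.9% (31.9 to 40.0) of 555 Lyz1-high CD cells. Unthinned, the shares were 95.6% and 91.0%, close together because Lyz1-high cells were deeper (8205 against 4052 median UMIs). In HFD the thinned shares were 59.9% (54.8 to 64.9) of 382 Lyve1+ and 25.7% (22.5 to 29.2) of 668 Lyz1-high cells, and the unthinned ones 85.5% and 73.1%. *Csf2ra* was found in 14.7% (12.7 to 16.9) of Lyve1+ and 30.3% (26.5 to 34.3) of Lyz1-high CD cells after thinning, 46.6% and 88.8% before. The HFD shares were 17.0% (13.4 to 21.2) and 28.3% (24.9 to 31.9), 37.8% and 79.6% unthinned. Thinning left out 10 Lyve1+ and 0 Lyz1-high CD cells, and 33 and 4 HFD cells.

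The background came from the few cells with at least 2 markers of an endothelial, stromal, mesothelial, T or NK, or B cell, 18 in CD and 7 in HFD. They held 31 *Csf1r* UMIs in CD (318 CPM, 216 to 451) at a median depth of 4968 UMIs. Unthinned, 12 of the 18 CD cells had *Csf1r* UMIs, and whether these were free RNA or the cells' own was not tested. After thinning, 4 of 16 such CD cells (25.0%, 7.27 to 52.4) had *Csf1r*, and 2 (12.5%, 1.55 to 38.3) had *Csf2ra*. The Ccl17+ share of *Csf1r* in CD, 22.6% (9.59 to 41.1), was not above this background and lay within its interval, and the level of these cells, 365 CPM, lay within the interval of the background level. The share of Lyz1-high CD cells, 35.9%, and their level, 445 CPM, also lay within these intervals, so they cannot be placed above this background. The shares of Plac8+ (40.5%) and Ccr2+ CD cells (50.9%) lay within the interval of the background share as well. For *Csf2ra* the interval of the background took in the shares of Lyve1+ and of Lyz1-high cells alike, so 16 cells cannot place them against it. In HFD all 9 *Csf1r* UMIs of such cells (403 CPM) lay in 1 of the 7 cells, at a median depth of 905 UMIs. A Poisson interval does not cover such clumping, so the 271 CPM of Lyz1-high HFD cells cannot be placed against this background.

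Between the diets, *Csf1r* was lower in HFD over all kept cells, by a log2 ratio of -0.79 (-0.85 to -0.74), or 1.73-fold. All 7 sets had lower levels in HFD, with log2 ratios of -0.79 in Ccr2+ (-0.86 to -0.72), -0.72 in Lyz1-high (-0.82 to -0.62), -0.69 in Timd4+ (-0.91 to -0.48), -0.60 in Plac8+, -0.55 in Ccl17+, -0.48 in Lyve1+ (-0.57 to -0.39) and -0.24 in Folr2+Lyve1- cells (-0.33 to -0.14). Every one of these intervals excluded 0. In Ccl17+ cells the direction turned with stricter limits for the sets (0.51) and with cells thinned to 1000 UMIs (0.10). In cells that belonged to 1 set alone the direction turned in 3 sets, to 0.44 in Timd4+, 0.20 in Ccr2+ and 0.50 in Lyz1-high cells, where only 4, 86 and 8 CD cells were left. Cells in no set, 42 in CD and 271 in HFD, had 657 and 719 CPM (log2 0.13, -0.27 to 0.55).

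The kept cells were also split into 4 classes that share no cells, a split chosen after the set values were known. Lyve1+ cells that were not Lyz1-high had 1224 CPM of *Csf1r* in CD and 997 CPM in HFD (log2 -0.30, -0.40 to -0.20). Lyz1-high cells without *Lyve1* had 377 and 256 CPM (log2 -0.55, -0.67 to -0.44), cells that were both 679 and 402 CPM (log2 -0.76), and cells that were neither 817 and 639 CPM (log2 -0.36, -0.45 to -0.27). With each cell thinned to 1000 UMIs, so that deep cells weighed no more than shallow ones, the first class stood at 1241 CPM in CD and 1223 CPM in HFD (log2 -0.02, -0.19 to 0.14). The Lyz1-high class was still lower in HFD, at 384 against 292 CPM (log2 -0.40, -0.71 to -0.08), as were the class with neither (log2 -0.37, -0.52 to -0.21) and all cells together (log2 -0.53, -0.64 to -0.43). With this weighting a difference in *Csf1r* between the diets was not detectable in these Lyve1+ cells, with an interval that allows a log2 ratio down to -0.19. For the whole Lyve1+ set thinning was the setting nearest 0 (-0.11). The ratio of that set was negative in all 14 alternative settings, down to -0.66 with at least 1000 genes per cell.

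The shares of the sets also differed between the libraries. Lyve1+ cells were 49.6% of CD and 20.5% of HFD cells, and Lyz1-high cells 23.5% and 33.3%. Giving the 4 classes their CD levels and their HFD share of UMIs put *Csf1r* at 630.3 CPM. The CD level was 815 and the HFD level 470.4. The log2 ratio of the 630.3 CPM over the CD level was -0.37, and that of the HFD level over the 630.3 CPM was -0.42. Sets and classes rest on UMI counts per cell, and median depth was 4490.5 UMIs in CD and 2792 in HFD. The part of depth in these shares was not tested. *Csf1r* was higher in cells with fewer than 1000 genes, at 1178 CPM against 799 CPM in the other CD cells and 956 against 397 CPM in HFD, and such cells were commoner in HFD. The summed level of the 6 macrophage markers was lower in HFD too, by the values given above, and its part in the *Csf1r* difference was not tested.

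**Figure D3:**
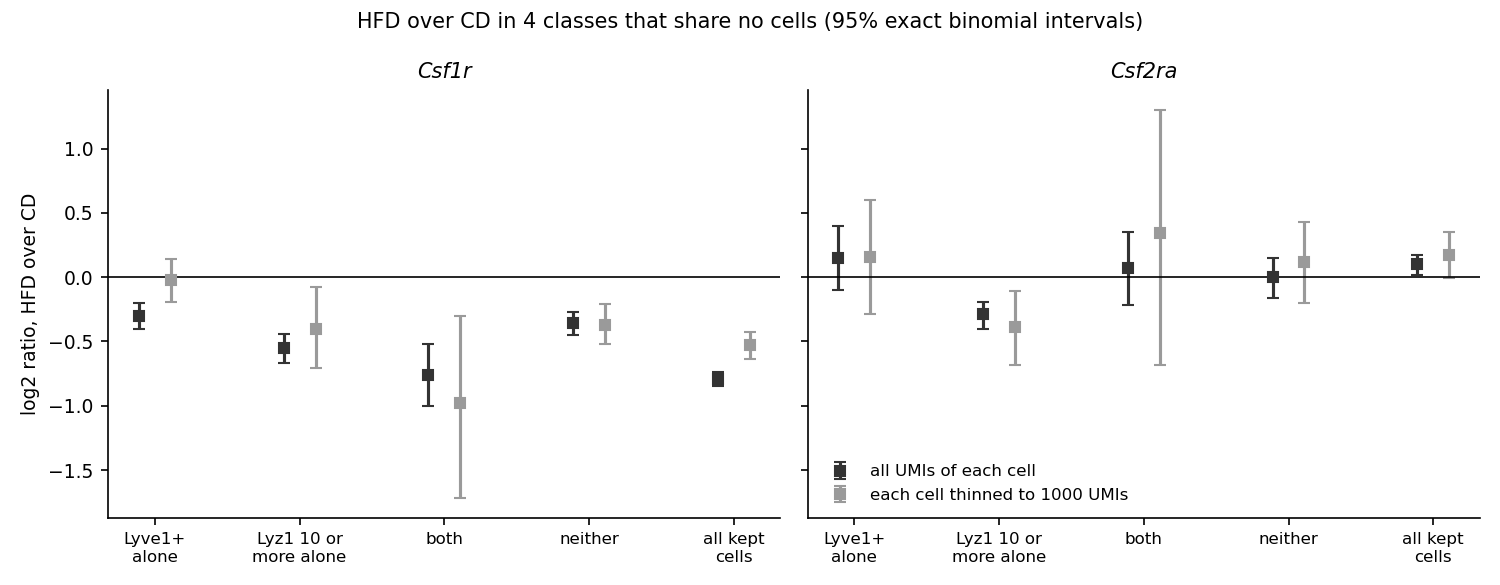
Log2 ratios of HFD over CD (vertical axis) for *Csf1r* and *Csf2ra* in 4 classes that share no cells and in all kept cells, from all UMIs and from cells thinned to 1000 UMIs, with exact binomial 95% intervals. In Lyve1+ cells that were not Lyz1-high, *Csf1r* is at -0.30 from all UMIs and at -0.02 after thinning, and *Csf2ra* is below 0 in Lyz1-high cells without *Lyve1*.

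*Csf2ra* over all kept cells was at 278 CPM in CD and 297 CPM in HFD, a log2 ratio of 0.10 (0.02 to 0.17) that was -0.01 with mt- UMIs limited to 5%. By set it went both ways. It was higher in HFD in Timd4+ (log2 0.44, 0.05 to 0.83) and Lyve1+ cells (0.25, 0.06 to 0.43), and lower in Folr2+Lyve1- (-0.30, -0.44 to -0.16) and Lyz1-high cells (-0.21, -0.31 to -0.11). With cells thinned to 1000 UMIs the ratio was 0.41 (-0.59 to 1.31) in Timd4+ and 0.22 (-0.19 to 0.61) in Lyve1+ cells. It was then -0.23 (-0.55 to 0.09) in Folr2+Lyve1- and -0.24 (-0.52 to 0.03) in Lyz1-high cells. With mt- UMIs limited to 5% the Timd4+ ratio was 0.35 (-0.09 to 0.77), and all of these intervals take in 0. In cells of 1 set alone the ratio turned to -0.10 in Lyve1+ and 0.02 in Folr2+Lyve1- cells. Ccr2+ cells had 324 and 323 CPM. In the classes that share no cells, the lower level of Lyz1-high cells without *Lyve1* stayed, at 430.1 CPM in CD and 351 CPM in HFD (log2 -0.29, -0.40 to -0.19) and with thinning (-0.39, -0.68 to -0.11). Lyve1+ cells that were not Lyz1-high had 163 and 181 CPM, within counting error (log2 0.15, -0.10 to 0.40).

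*Csf2rb* (ENSMUSG00000071713, chromosome 15, 78325752 to 78353847, plus strand), the signalling chain, had 640 UMIs in CD and 484 in HFD, or 52.1 CPM (48.1 to 56.3) and 59.9 CPM (54.6 to 65.4). For each of its UMIs there were 5.33 *Csf2ra* UMIs in CD and 4.96 in HFD. Like *Csf2ra* it was lower in Lyve1+ than in Lyz1-high cells. In CD it was at 94.3 CPM in Ccl17+ (23 UMIs), 62.8 CPM in Lyz1-high, 56.4 CPM in Folr2+Lyve1-, 54.2 CPM in Ccr2+, 47.6 CPM in Plac8+, 45.6 CPM in Lyve1+ and 44.0 CPM in Timd4+ cells, and in HFD between 42.8 CPM in Timd4+ and 68.3 CPM in Lyz1-high cells. No neighbours differed beyond counting error in either library. Lyve1+ cells were lower than Lyz1-high cells in CD (log2 -0.46, -0.71 to -0.21) and in HFD (-0.51, -0.92 to -0.12).

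Between diets *Csf2rb* was higher in HFD over all kept cells (log2 0.20, 0.03 to 0.37) and in Ccr2+ cells (0.24, 0.04 to 0.43), where the interval took in 0 with mt- UMIs limited to 5% (0.20, -0.01 to 0.41). The other 6 sets had log2 ratios from -0.60 to 0.12 whose intervals all included 0. Thinned to 1000 UMIs, the share of cells with a *Csf2rb* UMI was 4.67% (3.85 to 5.61) in CD and 5.87% (4.82 to 7.08) in HFD, against 21.4% and 18.8% unthinned. Of the 16 CD cells with non-myeloid markers 2 had a UMI (12.5%, 1.55 to 38.3), so the shares of *Csf2rb* were not above this background and lay within its interval. By level, 52.1 CPM in all CD cells stood beside 30.8 CPM (6.34 to 89.9) in those cells.

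*Csf2rb2* (ENSMUSG00000071714, chromosome 15, 78282507 to 78305721, minus strand) lies beside *Csf2rb* and is its near copy. Of the 50-base stretches of its longest coding transcript in GENCODE M21, 19.0% also occur in a *Csf2rb* transcript, but none of the 451 in the last 500 bases, where 3' reads start, so the 2 genes can be told apart there. Reads from the shared stretches cannot be assigned to 1 gene, which makes the levels of both uncertain. *Csf2rb2* had 185 UMIs in CD (15.1 CPM, 13.0 to 17.4) and 82 in HFD (10.1 CPM, 8.06 to 12.6), a log2 ratio of -0.57 (-0.96 to -0.19).

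Across sets *Csf2rb2* did not follow *Csf2rb*. In CD it was at 33.0 CPM in Plac8+ (9 UMIs), 24.6 CPM in Ccl17+ (6 UMIs), 21.4 CPM in Timd4+, 16.2 CPM in Lyve1+, 13.8 CPM in Ccr2+, 13.7 CPM in Folr2+Lyve1- and 11.3 CPM in Lyz1-high cells. Timd4+ cells were higher than Lyz1-high cells there (log2 0.92, 0.27 to 1.55), as were Lyve1+ cells (0.51, 0.01 to 1.03). In HFD the 7 sets lay between 9.14 and 12.7 CPM, with no difference beyond counting error. *Csf2rb* UMIs per *Csf2rb2* UMI went from 2.06 (1.36 to 3.15) in Timd4+ to 5.54 (4.13 to 7.54) in Lyz1-high CD cells. The log2 ratio of HFD over CD was negative in all 7 sets, and beyond counting error in Ccr2+ cells alone (-0.53, -1.01 to -0.07), where the interval took in 0 with mt- UMIs limited to 5% (-0.41, -0.90 to 0.07) and the ratio turned to 0.53 in cells of that set alone. With cells thinned to 1000 UMIs the ratio turned to 0.82 in Timd4+ and 0.37 in Folr2+Lyve1- cells. The HFD levels of Plac8+ and Ccl17+ cells rested on 5 and 2 UMIs.

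*Csf3r* (ENSMUSG00000028859, chromosome 4, 126024550 to 126044440, plus strand) was rare, with 100 UMIs in 89 CD cells and 54 UMIs in 52 HFD cells (8.14 CPM, 6.62 to 9.90, and 6.68 CPM, 5.02 to 8.71). Of these cells, 87 of the 89 in CD and 39 of the 52 in HFD had *Csf1r* UMIs, where 91.2% and 72.6% of all kept cells did, 87 and 45 had *C1qa*, and 1 and 0 had *S100a8*. Of the cells with non-myeloid markers, 0 of 18 in CD and 1 of 7 in HFD had a *Csf3r* UMI, too few to set a background for it. With Plac8+ and Ccl17+ cells set aside, *Csf3r* was lowest in Lyz1-high and next lowest in Ccr2+ cells in both libraries, as was *Csf1r*. It was at 9.87 CPM in Lyve1+, 9.52 CPM in Timd4+, 7.85 CPM in Folr2+Lyve1-, 5.18 CPM in Ccr2+ and 2.73 CPM in Lyz1-high CD cells, and at 6.54, 10.7, 6.86, 4.70 and 2.61 CPM in the same HFD sets. The HFD level of Timd4+ cells rested on 3 UMIs. Plac8+ cells had the highest level of the 7 sets in both libraries, on 4 and 6 UMIs (14.6 and 15.2 CPM). They exceeded Lyz1-high cells beyond counting error (log2 2.42, 0.35 to 4.12, in CD and 2.54, 0.84 to 4.06, in HFD). Ccl17+ cells had 2 and 0 UMIs.

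Lyz1-high cells were lower in *Csf3r* than all other kept cells, by a log2 ratio of -2.08 (-3.05 to -1.23) in CD and -2.20 (-3.26 to -1.25) in HFD. Lyve1+ cells exceeded Lyz1-high cells by 1.85 (0.96 to 2.85) in CD, and by 1.32 (-0.10 to 2.69) in HFD, where 9 and 12 UMIs could not show a difference. *Csf3r* was higher in cells with fewer than 1000 genes, at 25.2 CPM (13.4 to 43.1) against 7.39 CPM (5.92 to 9.12) in CD and 18.9 CPM (11.5 to 29.2) against 4.84 CPM (3.35 to 6.76) in HFD. The 271 HFD cells in no set held 11 of its UMIs, 28.8 CPM, and the 42 such CD cells none, at a floor of 30.8 CPM for 3 counts. HFD and CD did not differ beyond counting error (log2 -0.29, -0.79 to 0.21). Of the neighbours in the order of levels, Ccr2+ and Lyz1-high CD cells alone had an interval that excluded 0 (log2 0.92, 0.01 to 1.94). Most Lyz1-high cells were also Ccr2+, so that interval is not exact and the difference is not secure.

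**Figure D4:**
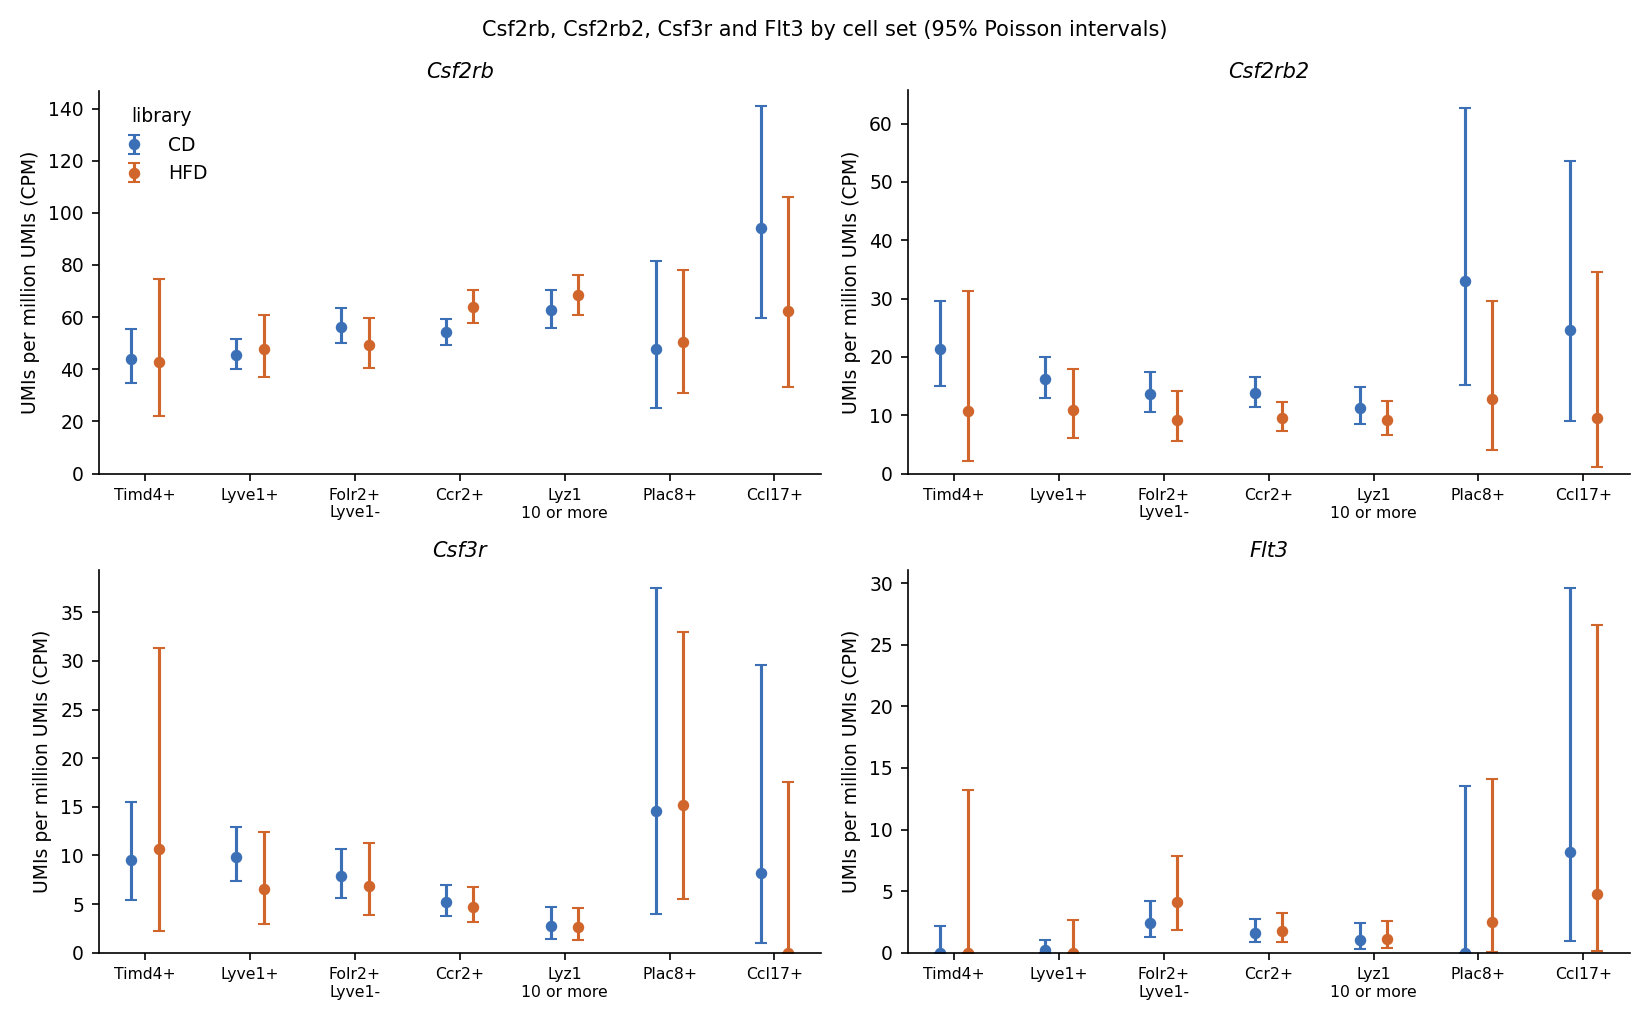
Levels of *Csf2rb*, *Csf2rb2*, *Csf3r* and *Flt3* (vertical axes, CPM, a scale for each gene) in the 7 cell sets of the CD and HFD libraries, with 95% Poisson intervals. *Csf3r* is lowest, at 2.73 and 2.61 CPM, in Lyz1-high cells of the sets with UMIs in both libraries, and the wide bars of Plac8+ and Ccl17+ cells rest on few UMIs.

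*Flt3* (ENSMUSG00000042817, chromosome 5, 147330741 to 147400489, minus strand) had 17 UMIs in each library, in 13 CD and 15 HFD cells (1.38 CPM, 0.806 to 2.22, and 2.10 CPM, 1.22 to 3.37). Folr2+Lyve1- cells held 12 of the 17 CD UMIs (2.42 CPM, 1.25 to 4.22) and 9 of the 17 HFD UMIs (4.12 CPM, 1.88 to 7.82). Ccr2+ cells had 1.61 and 1.78 CPM, and Lyz1-high cells, with 5 UMIs in each library, 1.05 and 1.09 CPM. Timd4+ cells had none, with floors of 3 counts at 1.78 CPM in CD and 10.7 CPM in HFD, and Lyve1+ cells had 1 and 0 UMIs. Folr2+Lyve1- cells exceeded Lyve1+ cells beyond counting error in both libraries, and no neighbours in the order of levels differed.

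The Ccl17+ set, chosen because CCL17 is made by dendritic cells, held 2 *Flt3* UMIs in CD (8.20 CPM, 0.993 to 29.6) and 1 in HFD (4.78 CPM, 0.121 to 26.6). Against all other kept cells its log2 ratio was 2.72 (-0.45 to 4.82) in CD and 1.24 (-4.15 to 3.92) in HFD, so that no difference was detectable at this depth. Most *Flt3* UMIs lay with *Cd209a*, a lectin of monocyte-derived and type 2 dendritic cells, named after its values were seen. The paper, from the same 2 libraries, already lists *Cd209a*, *Napsa* and *Flt3* together for a cluster with a dendritic cell signature. It also lists *Cd209a* among genes enriched in its resident macrophage cluster. All cells with a *Cd209a* UMI had 930.3 CPM of *Csf1r* in CD and 418 CPM in HFD, beside 815 and 470.4 CPM in all kept cells. Cells with at least 3 *Cd209a* UMIs, 175 in CD and 55 in HFD, held 12 and 9 of the 17 *Flt3* UMIs (70.6% and 52.9%) while holding 8.63% and 5.13% of all UMIs, at levels of 11.3 CPM (5.85 to 19.8) and 21.7 CPM (9.93 to 41.2). These cells had 776 CPM of *Csf1r* in CD and 232 CPM in HFD, and 239 and 275 CPM of *Csf2ra*. Of the *Flt3* cells, 10 in CD and 8 in HFD had *Napsa*, 3 and 5 had *Klrd1*, 4 and 1 had the dendritic cell factor *Zbtb46*, 1 and 0 had *Ccr7*, and 2 and 0 had *Clec9a*, while none had *Xcr1*. The macrophage markers *C1qa* and *Adgre1* were found in 10 and 7 of the 13 CD cells and in 11 each of the 15 HFD cells. *Flt3* and *Csf1r* UMIs occurred together in 6 of the 13 CD cells and 9 of the 15 HFD cells. Of all kept cells, 91.2% in CD and 72.6% in HFD had *Csf1r*, and 339 of 2364 and 408 of 2021 had *Napsa*. *Klrd1* was found in 33 CD and 53 HFD kept cells, and *Zbtb46* in 57 and 22. These counts were not thinned. The *Flt3* cells had median depths of 7989 UMIs in CD and 5350 in HFD, against 4490.5 and 2792 in all kept cells.

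Members were also counted in the same cells after thinning to 1000 UMIs. *Csf2ra* was found in 26 of 108 CD cells with *Csf2rb* (24.1%, 16.4 to 33.3) and in 19.1% (17.5 to 20.9) of those without it. In HFD the shares were 22 of 103 (21.4%, 13.9 to 30.5) and 22.5% (20.5 to 24.6). The intervals overlapped in both libraries, so these counts cannot decide whether the chains of the CSF2 receptor occur together more often. Where *Csf2rb2* was found, *Csf2rb* was found too in 2 of 41 cells in CD and 1 of 18 in HFD. *Csf1r* was found in 51.3% (46.6 to 56.1) of CD cells with *Csf2ra* and in 60.4% (58.1 to 62.6) of those without, and in 38.4% (33.6 to 43.4) and 44.5% (41.9 to 47.2) in HFD. Within Lyve1+ cells the CD shares were 66.7% and 68.4%, and within Lyz1-high cells 35.1% and 36.2%. *Flt3* left 2 CD and 6 HFD cells after thinning, with *Csf1r* in 0 and 1 of them.

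The members were set beside all genes with at least 20 UMIs in a comparison, counting those past 1.5-fold. In HFD over CD, 1 of 6 members was higher, *Flt3* (log2 0.60, -0.46 to 1.66, on 34 UMIs), where 6.28% of 11170 genes were. *Csf1r* was the 1 of 6 that was lower, where 11.9% of genes were. *Csf2rb2* fell just short at 1.49-fold. The median log2 ratio was -0.10 over the members and -0.02 over all genes. In Lyve1+ over Lyz1-high cells, 2 of 5 members compared were higher, *Csf1r* and *Csf3r*, and *Csf2ra* was the 1 of 5 that was lower, in CD and again in HFD. The count of *Csf3r* in HFD rested on 9 and 12 UMIs, with an interval that took in 0 (log2 1.32, -0.10 to 2.69). In CD, 25.7% of 10162 genes were higher and 8.96% lower, and in HFD 23.2% of 9139 genes were higher and 8.38% lower. The medians were 0.51 over the members and 0.20 over all genes in CD, and 0.25 and 0.18 in HFD.

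Apart from *Flt3l*, the ligands were nearly absent from these cells. *Il34*, *Csf2*, *Il3* and *Il5* had no UMI in either library, *Csf1* and *Csf3* had 8 in CD and 9 in HFD each, and *Flt3l*, encoding FLT3 ligand, had 181 (14.7 CPM) and 85 (10.5 CPM), a log2 ratio of HFD over CD of -0.49 (-0.88 to -0.11). Of the other receptor chains *Il3ra*, the IL-3 binding partner of the beta chains, had 682 UMIs in CD and 382 in HFD (55.5 and 47.2 CPM). It was higher in Lyve1+ than in Lyz1-high cells in CD (log2 0.82, 0.57 to 1.08) and did not differ in HFD beyond counting error (0.15, -0.26 to 0.55). *Il5ra* and *Kit* had no UMI.

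Behind the receptors, none of the 9 JAK-STAT genes compared was past 1.5-fold between the diets, with a median log2 ratio of -0.02, and between the sets 1 was lower in Lyve1+ cells in CD and 1 higher in HFD. The 21 RAS, PI3K and adaptor genes compared had 1 higher and 0 lower in HFD, and the 18 negative regulators 1 higher and 3 lower. Of all genes compared, 6.28% were higher and 11.9% lower in HFD. In Lyve1+ over Lyz1-high cells the RAS, PI3K and adaptor list had 4 of 20 higher and 4 lower in CD, and 5 of 20 higher and 2 lower in HFD. *Pik3cg*, the catalytic PI3K gamma subunit, was higher in Lyve1+ cells in both libraries (log2 1.29, 0.91 to 1.67, and 1.23, 0.68 to 1.77). So was *Dusp6*, a phosphatase that switches off ERK (1.69, 1.46 to 1.93, and 2.68, 2.32 to 3.05). Of the 16 negative regulators compared, 4 were higher in Lyve1+ cells in each library, and 3 lower in CD and 2 in HFD. Beside these lists, 25.7% of all genes were higher in Lyve1+ cells and 8.96% lower in CD, and 23.2% and 8.38% in HFD.

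The transcription factors of the receptors' lineages had 8 of 18 higher and 3 lower in Lyve1+ cells in CD, and 8 of 17 and 3 in HFD, at medians of 0.36 and 0.27. All genes had 25.7% higher and 8.96% lower in CD, and 23.2% and 8.38% in HFD. *Maf* (log2 2.03 in CD and 2.64 in HFD) and *Klf4* (1.07 and 1.01), both known from macrophages, were higher in Lyve1+ cells, whereas *Spi1* was at 0.17 and -0.06 and *Cebpb* at -0.48 and -0.25. *Irf8*, a factor of monocytes and dendritic cells (2.45 and 2.11), and *Tcf4*, known from plasmacytoid dendritic cells (2.25 and 2.49), were higher as well. *Cebpe*, a factor of granulocyte maturation (-2.37 and -1.35), and *Id2*, a factor of dendritic and innate lymphoid cells (-1.95 and -1.47), were lower. Between the diets *Cebpb*, an inducible factor of myeloid cells, was at 1434 CPM in HFD and 666 CPM in CD (log2 1.11, 1.06 to 1.15). Of the 11 genes listed as CSF2 and STAT5 targets, 2 were higher and 0 lower in HFD, where 6.28% and 11.9% of all genes were, with a median of 0.32. They were *Osm*, the cytokine oncostatin M (log2 1.41, 1.14 to 1.69), and *Ccl17* (1.20, 0.96 to 1.45), of whose 352 HFD UMIs 47.4% came from 1 cell. In Lyve1+ over Lyz1-high cells this list had 0 of 9 higher and 6 lower in CD, and 3 of 10 higher and 4 lower in HFD. *Ccl17* was 1 of those 3 (log2 3.30), and 102 of its 103 UMIs in HFD Lyve1+ cells came from 1 cell. *Il1rn*, the IL-1 receptor antagonist, was lower in both (-1.99 and -1.08).

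**Figure D5:**
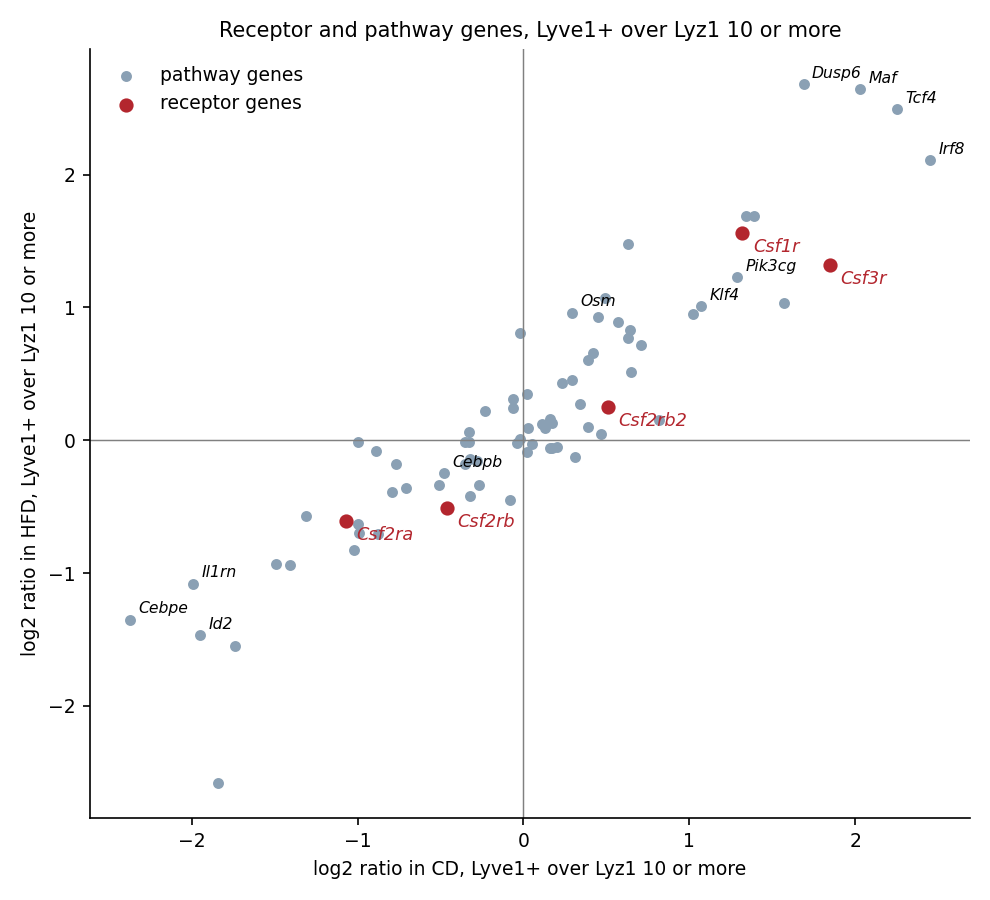
Log2 ratios of Lyve1+ over Lyz1-high cells in CD (horizontal axis) and HFD (vertical axis), with a point for each of 5 receptor genes and 73 pathway genes compared in both libraries. *Csf1r* lies at 1.32 and 1.56, and *Csf2ra* at -1.07 and -0.61 on the opposite side. *Ccl17* had too few UMIs in CD to be compared there.

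The genes whose levels ran most like those of a member were sought over the 14 points of 7 sets in 2 libraries, among 6391 genes with at least 100 UMIs in each library, as a description. The points share cells and libraries. For *Csf1r* these were the mitochondrial genes *mt-Co3* (Pearson's r 0.988 on log2 of CPM plus 10) and *mt-Atp6* (0.983) and the membrane protein gene *Itm2b* (0.988). The median mt- share of the CD sets was 4.86% in Lyve1+ and 2.57% in Lyz1-high cells, and that of the HFD sets 4.51% and 2.12%. For *Csf2ra* they were *Unc119* (0.953), *Prr5l* (0.949) and *Furin* (0.943), a proprotein convertase. *Unc119* went from 103 CPM in Timd4+ to 367 CPM in Lyz1-high CD cells. For *Csf2rb* they were *Bri3bp* (0.914), *Scand1* (0.905) and *Plpp2* (0.899).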

How the data were processed

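Droplet-based scRNA-seq was made from 1 library of 3 pooled mice per diet. The authors deposited UMI counts per gene and barcode, without normalization, which per the labels were made with Cell Ranger 3.0.2 on mm10. Counts of the 2 libraries were summed over cells and divided by all UMIs of those cells (CPM). Cells had 200 to 3500 genes and at most 10% mt- UMIs, and doublets were kept (an alternative removed those with the highest Scrublet scores). Applied to these counts, the gene bound and UMI-to-gene limit of the study's methods left 2364 CD and 1993 HFD cells. The study then also removed clusters of endothelial cells, of peritoneal macrophages, and of cells with a median under 1000 genes, a step not repeated here. The 4 peritoneal macrophage markers were at 16.1 CPM in CD and 55.6 CPM in HFD, with at least 2 of them in 4 CD and 11 HFD cells. The share of such cells in the sets was not tested. Levels have exact Poisson and ratios exact conditional binomial 95% intervals, and shares are Clopper-Pearson. Cells are not replicates, so no p-value was computed. A level of 0 was given a floor of 3 counts. Genes were compared from 20 UMIs and counted past 1.5-fold. Named pathway genes had at least 100 UMIs in each library and differed by 1 or more on the log2 scale, either between the sets with 1 sign in both libraries or between the diets. A gene that met this rule is not reported here. The members and lists were chosen with earlier results of these data known. Functions were tested on simulated counts. Python 3.11.15, numpy 2.4.6, scipy 1.17.1, pandas 2.3.3 and scanpy 1.11.5 were used. Gene positions came from GENCODE M21 (GRCm38, the mm10 build).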

Additional observations from a re-analysis of the deposited data

Results flagged for a closer look

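*Csf2ra* had log2 ratios of HFD over CD of opposite sign in different cell sets, 0.44 in Timd4+ and 0.25 in Lyve1+ cells against -0.30 in Folr2+Lyve1- and -0.21 in Lyz1-high cells. With cells thinned to 1000 UMIs the interval of each of these sets took in 0. The difference between the sets was not tested, since each diet had 1 library. Barcodes with more than 10% mt- UMIs, 2059 in CD and 1132 in HFD, were left out of the main comparisons. In them *Csf2ra* was at 242 CPM in CD and 342 CPM in HFD (log2 0.50, 0.30 to 0.70). *Csf2rb* was at 49.2 and 76.6 CPM (log2 0.64, 0.19 to 1.07), so both were above the control level. *Csf1r* in the same barcodes was at 982 CPM in CD and 681 CPM in HFD (log2 -0.53, -0.66 to -0.40). Some of these barcodes entered the alternative setting of at most 20% mt- UMIs, which kept 3288 CD and 2818 HFD cells.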

How the results depend on the processing

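Each diet had 1 library, so no replicate could be left out. No paired analysis was possible because each diet had 1 library. Under 16 settings, 90 of 122 values that answer a comparison moved by less than their counting interval, 32 moved further and 0 reversed. Of 503 other values, among them shares of cells and, judged by a 1.5-fold limit, shares of genes, 438 stayed within their limit, 56 moved and 9 reversed. A value was called reversed only where its main interval excluded 0, so changes of sign in the other values are not in these counts. Between the diets *Csf2rb* in Lyve1+ cells, for example, kept its sign in 8 of 14 settings, and *Csf2ra* in Plac8+ cells in 10 of 14. The log2 ratios of Lyve1+ over Lyz1-high cells for *Csf1r* in CD and HFD and *Csf2ra* in CD and HFD were 1.32, 1.56, -1.07 and -0.61, and those of *Csf1r* for HFD over CD -0.79 in all and -0.48 in Lyve1+ cells. With mt- UMIs limited to 5%, *Csf1r* between the sets was 1.41 in HFD, *Csf2ra* -0.88 and -0.41, and *Csf2ra* over all cells turned to -0.01 in HFD over CD. With at least 1000 genes per cell, *Csf1r* was 1.38 between the HFD sets, and -1.01 and -0.66 between diets. In cells of exactly 1 set, *Csf1r* was 3.23 and 2.40 and *Csf2ra* -1.37 and -1.24 between the sets, on 8 Lyz1-high CD cells. Between diets *Csf1r* was then -0.33 in Lyve1+ cells and turned to 0.44 in Timd4+, 0.20 in Ccr2+ and 0.50 in Lyz1-high cells, *Csf2ra* to -0.10 in Lyve1+ and 0.02 in Folr2+Lyve1- cells, and *Csf2rb2* to 0.53 in Ccr2+ cells. With 2 UMIs for a set and 20 for *Lyz1*, these were 1.53, 1.85, -1.29 and -0.94 between the sets, and *Csf1r* between diets -0.31 in Lyve1+ and 0.51 in Ccl17+ cells. With sets defined after thinning, *Csf1r* was 2.08 and 2.07, *Csf2ra* in CD -1.59 and *Csf1r* between diets in Lyve1+ cells -0.32. With a mean of CPM per cell, *Csf1r* in HFD was 1.83, *Csf2ra* -1.25 and -0.93, and *Csf1r* between diets -0.55 and -0.26. With cells thinned to 1000 UMIs, *Csf1r* in HFD was 1.88, *Csf2ra* -1.28 and -0.82, *Csf1r* between diets -0.53, -0.11 in Lyve1+ and 0.10 in Ccl17+ cells, and *Csf2rb* 0.40. Without the highest doublet scores, 84 CD and 51 HFD cells, *Csf1r* in CD was 1.47. The cause of these shifts was not tested. Leaving out cells with 2 cycling markers was chosen after seeing the data and moved none of the values that answer a comparison. The median of all genes lay between -0.06 and 0.01 under every setting with a value. *Flt3* in Ccl17+ over other cells gave a value in 12 settings of each library, and elsewhere a side had no UMI. Its sign was positive in these settings but could hardly be otherwise. Ccl17+ cells held 1.99% of all UMIs in CD and 2.59% in HFD, whereas 1 of 17 *Flt3* UMIs is 5.88%. The sign therefore says nothing beyond the 2 and 1 UMIs found in the set.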
